A study of Mus musculus with 6 samples.

Results

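The 10 genes of the small leucine-rich proteoglycan family were followed in mouse ovary: Omd, Ogn, Dcn, Lum, Bgn, Fmod, Aspn, Prelp, Epyc and Kera. They were taken by symbol from the table of raw read counts, and all 10 were present among its 35415 genes. RNA of whole ovaries was sequenced in bulk from 3 wild-type and 3 Rnf111+/- mice, all of them 3 months old and in estrus. The product of Rnf111, Arkadia, is a ubiquitin ligase whose known targets include SMAD7 and SKIL, which restrain TGF-beta family signalling. CRISPR-Cas9 editing gave the heterozygous line, meant to model the loss of a single working RNF111 copy in premature ovarian insufficiency. The sources used here give neither the strain nor the edited position, and the labels separate the groups by genotype alone.

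Small leucine-rich proteoglycans are secreted core proteins built from leucine-rich repeats folded into a curved solenoid, most of them carrying chondroitin, dermatan or keratan sulfate chains. They bind collagen and set fibril diameter and spacing, and several of them bind growth factors of the TGF-beta family. The family is divided by sequence into class I (decorin, biglycan and asporin), class II (lumican, fibromodulin, PRELP, keratocan and osteomodulin) and class III (osteoglycin and epiphycan). In the ovary such proteins lie in the stroma, the theca around follicles and the walls of vessels. In RNA from a whole organ, fewer cells of a type and less RNA per cell cannot be told apart.

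The libraries held 38261449 to 39474515 counts each, so a count of 3, taken as the floor of detection, was worth 0.0747 to 0.0784 CPM, the count scaled to library size. CPM are given after scaling by the trimmed mean of M values (TMM). Rnf111 itself was at 53.8, 53.5 and 54.4 CPM in the wild-type libraries and at 44.2, 44.9 and 44.7 CPM in the heterozygous libraries, without overlap. It fell by 0.27 ± 0.07 on the log2 scale (SE, adjusted p = 0.04), a call that held in 1 of the 6 fits with a library left out. Wild-type replicate 3 stood apart from the other wild-type libraries, with a correlation of log2 CPM across genes of at most 0.975 against 0.989 between the other two. It also held more RNA of oviduct epithelium markers, whose 8 genes summed to 233 CPM there and to 66.7 and 68.2 CPM in the other wild-type libraries, and less of granulosa markers (2503 CPM, against 5305 and 5793 CPM). Results that change without it are given both ways.

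Between the genotypes the family did not move as a block. Of the 10 genes, 8 had counts and passed the filter on low counts, and 1 of them rose (Omd) and 2 fell (Dcn and Lum) in heterozygous ovaries at an adjusted p under 0.05. Epyc and Kera had 0 counts in all 6 libraries, which allows a level of up to 0.0784 CPM in the shallowest library. Of all 16841 genes tested, 9.64% passed the same test, 3.9% upwards and 5.74% downwards. The median log2 fold change, heterozygous over wild type, was -0.07 over the 8 genes and -0.008 over all tested genes. Adjusted p-values are from edgeR's quasi-likelihood test with Benjamini-Hochberg adjustment over all tested genes, unless another tool is named.

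**Figure D1:**
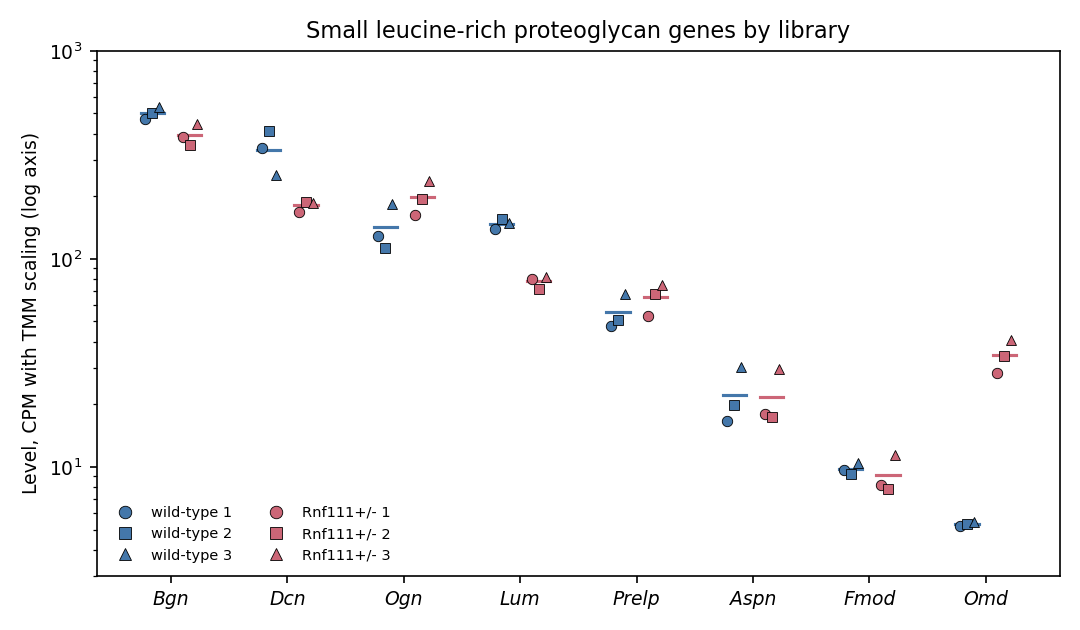
Level of each small leucine-rich proteoglycan gene in CPM with TMM scaling (vertical log axis) in the 3 wild-type (blue) and 3 Rnf111+/- (red) libraries. Each symbol is 1 library and each line the group mean; Epyc and Kera, at 0 counts, are not drawn. Omd lies at 5.19 to 5.41 CPM in wild-type and at 28.1 to 40.5 CPM in heterozygous libraries, whereas Dcn and Lum lie lower in all heterozygous libraries.

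Omd encodes osteomodulin, also called osteoadherin, a keratan sulfate proteoglycan with an acidic tail that is best known from bone and tooth. It was at 5.19, 5.34 and 5.41 CPM in wild-type ovaries, from 199, 206 and 212 counts. In heterozygous ovaries it was at 28.1, 34.3 and 40.5 CPM, from 1130, 1342 and 1552 counts. The wild-type libraries lay within a narrow band, and the lowest heterozygous library was several times above all of them. Omd rose 6.45-fold, a log2 fold change of 2.69 ± 0.15 (SE, adjusted p = 0.00015). By unadjusted p Omd ranked 5 among all tested genes, and by fold it ranked 51 among rises. Its call held in every one of the 13 alternative fits tried, with log2 fold changes of 2.56 to 2.82. Bone and cartilage markers were checked because of where osteomodulin is known: the 10 genes of that list summed to 132 to 233 CPM in wild-type and 86.7 to 103 CPM in heterozygous libraries, 1 rose (Comp) and 1 fell (Runx2) of 6 tested. Levels within that list were uneven, and Runx2 carried most of the sums, at 157 ± 50.2 CPM in wild-type and 61.8 ± 6.84 CPM in heterozygous ovaries (SD). Tnmd, Col2a1, Bglap, Ibsp and Sp7 had between 0 and 29 counts in any library. Runx2 had 2236 to 7665 counts, Scx 707 to 924, Sox9 126 to 207 and Acan 16 to 175. Comp, which encodes cartilage oligomeric matrix protein, had 16, 41 and 25 counts in wild-type and 448, 148 and 181 counts in heterozygous libraries (log2 3.21 ± 0.52, adjusted p = 0.0114). The part of such cells in the rise of Omd was not tested.

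Dcn encodes decorin, a class I proteoglycan with a single dermatan or chondroitin sulfate chain that binds collagen fibrils and TGF-beta. It was at 339, 410 and 254 CPM in wild-type ovaries and at 167, 188 and 186 CPM in heterozygous ovaries. The groups did not overlap, and the wild-type libraries were spread far more widely than the heterozygous ones, with replicate 3 lowest. Dcn fell by 0.89 ± 0.16 on the log2 scale (SE, adjusted p = 0.0183), to 54% of the wild-type level. Of the 6 fits with a library left out, 4 no longer called Dcn: without wild-type replicate 1 (adjusted p = 0.0566) and without heterozygous replicates 1, 2 and 3 (0.0718, 0.0718 and 0.0735). Without wild-type replicate 3 the fall was larger, at -1.04 ± 0.09 (adjusted p = 2.77e-05).

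Lum encodes lumican, a class II keratan sulfate proteoglycan of collagen-rich stroma. It was at 139, 155 and 149 CPM in wild-type ovaries and at 79.8, 71.7 and 82.1 CPM in heterozygous ovaries. Both groups were tight and far apart. Lum fell by 0.92 ± 0.08 (SE, adjusted p = 0.000491), to 52.7% of the wild-type level, and its call held in all 13 alternative fits. Dcn and Lum are neighbours in the genome and fell by nearly the same amount. The log2 ratio of Dcn to Lum in a library was 1.15 ± 0.34 in wild-type and 1.21 ± 0.16 in heterozygous ovaries (SD, n = 3 each). The change of that ratio was 0.06 ± 0.20 (SE), with an interval of 2 SE from -0.34 to 0.46, by limma on the ratio of every gene to Lum (adjusted p = 0.787). This comparison was added after the values were seen, and leaving out wild-type replicate 3 or heterozygous replicate 2 turned its sign (-0.13 and -0.03).

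Bgn encodes biglycan, the class I relative of decorin, which binds collagen and can signal through Toll-like receptors when freed from the matrix. It was at 472, 504 and 535 CPM in wild-type and at 385, 353 and 443 CPM in heterozygous ovaries, again without overlap. The difference of -0.35 ± 0.10 (SE) missed the threshold (adjusted p = 0.052). It passed with DESeq2 (adjusted p = 0.0172), limma-voom (0.0481) and no filter on low counts (0.023), and without wild-type replicate 3 (-0.30 ± 0.09, adjusted p = 0.0458). Of the 8 genes with counts, 4 had groups that did not overlap (Omd, Dcn, Lum and Bgn), against 32% of all tested genes.

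Ogn encodes osteoglycin, or mimecan, a class III protein of connective tissue and vessel walls. It was at 129, 113 and 183 CPM in wild-type and at 162, 194 and 237 CPM in heterozygous ovaries. The groups overlapped through wild-type replicate 3, which lay above the lowest heterozygous library. The log2 difference of 0.48 ± 0.21 (SE, adjusted p = 0.22) missed the threshold. It was 0.72 ± 0.16 and passed once wild-type replicate 3 was left out (adjusted p = 0.0308).

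The other 3 genes with counts did not separate the genotypes. Prelp, which encodes a basement membrane anchor protein with a basic, heparin-binding start, was at 47.6, 50.6 and 68 CPM in wild-type and at 53, 68.1 and 75 CPM in heterozygous ovaries (log2 0.24 ± 0.17, adjusted p = 0.439). Fmod encodes fibromodulin, which shares its collagen binding region with lumican. It was at 9.68, 9.25 and 10.4 CPM in wild-type and at 8.17, 7.82 and 11.4 CPM in heterozygous ovaries (log2 -0.10 ± 0.18, adjusted p = 0.774). Aspn encodes asporin, which differs from its class I relatives in lacking the usual chain attachment site and carrying an aspartate-rich stretch. It was at 16.6, 19.8 and 30.2 CPM in wild-type and at 18, 17.3 and 29.7 CPM in heterozygous ovaries (log2 -0.04 ± 0.29, adjusted p = 0.96). With all libraries, intervals of 2 SE reached from -0.10 to 0.58 for Prelp and from -0.46 to 0.26 for Fmod. For Aspn the interval reached from -0.62 to 0.55, so both directions lay within the interval of each gene. Prelp was more than 2 SE above 0 without wild-type replicate 3 (0.42 ± 0.13, adjusted p = 0.0679) and without heterozygous replicate 1 (0.37 ± 0.16, adjusted p = 0.241). It did not pass in either fit, and its log2 difference was as low as 0.13 with other libraries left out. In both genotypes the library numbered 3 had the highest Ogn, Prelp, Fmod and Aspn. The sign of Aspn turned without wild-type replicate 3 (0.26) and without heterozygous replicates 1 and 2 (0.08 and 0.11), and that of Fmod without heterozygous replicate 2 (0.0083).

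Omd was then set against each of the other genes within a library, a ratio that does not depend on how libraries are scaled. For every 100 Lum counts there were 3.74, 3.45 and 3.63 Omd counts in wild-type and 35.3, 47.8 and 49.4 in heterozygous ovaries. For every 100 Dcn counts there were 1.53, 1.3 and 2.13 Omd counts in wild-type and 16.8, 18.2 and 21.8 in heterozygous ovaries. Thus Omd went from a trace beside these stromal proteoglycans to a sizeable fraction of their counts. Against Fmod, a gene at a similar wild-type level, Omd went from 53.6, 57.7 and 52.1 counts per 100 to 345, 439 and 356. Against its neighbour Ogn the change was from 4.02, 4.73 and 2.95 to 17.4, 17.6 and 17.1, and the heterozygous values were nearly equal.

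The change of each gene relative to Omd was tested by limma on the log2 ratio of every gene to Omd, adjusted over all genes. All 7 genes fell relative to Omd. Relative to Omd, Lum fell by 3.59 ± 0.21 (SE, adjusted p = 2.83e-06) and Dcn fell by 3.53 ± 0.24 (adjusted p = 2.83e-06). The smallest difference was that of Ogn, at -2.17 ± 0.22 (adjusted p = 1.03e-05), and those of Bgn, Fmod, Aspn and Prelp were -3.02, -2.78, -2.70 and -2.42. Of all other genes tested, 98.3% also fell and 0.0534% rose relative to Omd in this test, so the result speaks of Omd's own rise and does not single out the family. An exact two-sided permutation test of each of the 7 ratios gave p = 0.1, the smallest that 3 against 3 allows, and 0.1 after adjustment over the 7.

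The same ratios were taken to Lum. The change of Dcn relative to Lum is given above, and Bgn (0.56 ± 0.11), Fmod (0.81 ± 0.16), Aspn (0.89 ± 0.28), Prelp (1.17 ± 0.20) and Ogn (1.42 ± 0.24) rose relative to it (log2 differences ± SE, limma adjusted p from 0.00205 for Ogn to 0.024 for Aspn). Of all other genes, 81.4% rose and 0.796% fell relative to Lum in the same test, so these rises speak of the fall of Lum and do not single out the 5 genes.

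**Figure D2:**
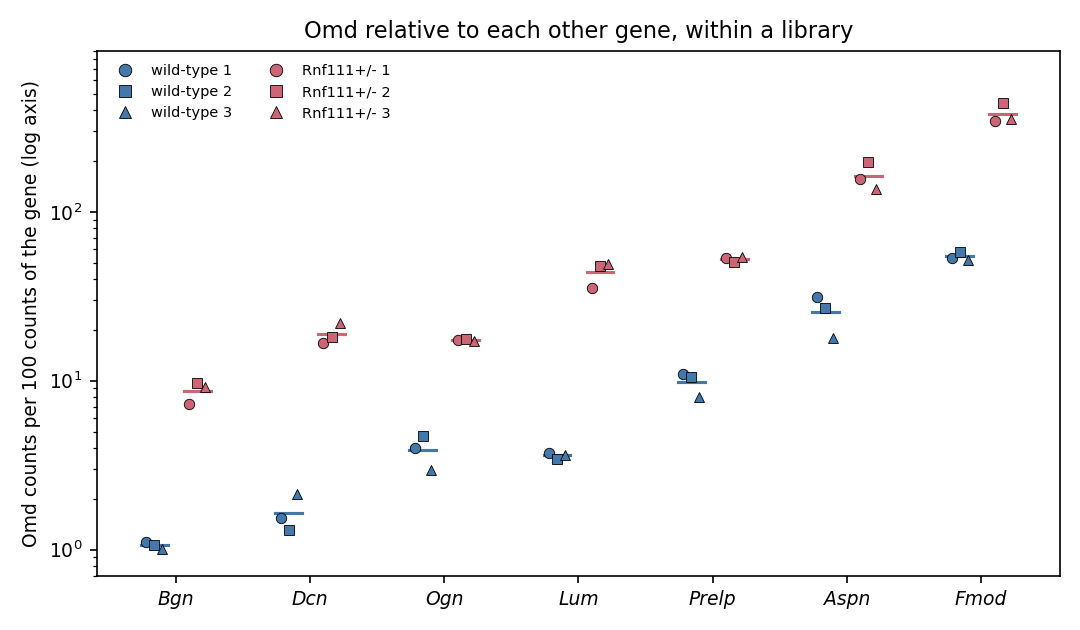
Omd counts per 100 counts of each other gene with counts (vertical log axis), by library, with symbols as 1 library each and lines as group means in wild-type (blue) and Rnf111+/- (red) ovaries. The red points lie above the blue points for all 7 genes; against Lum they lie at 35.3 to 49.4, compared with 3.45 to 3.74.

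To compare levels between genes, CPM were divided by the length of the principal transcript of each gene. In wild-type ovaries Bgn was highest at 208 ± 13 CPM per kb, followed by Dcn at 190 ± 44.4, which did not differ beyond the spread. Lum at 60.3 ± 3.26 and Ogn at 55.3 ± 14.4 CPM per kb came next and were also within the spread of each other. Prelp (15.3 ± 3.04) and Aspn (9.53 ± 3.05) followed, then Fmod (3.13 ± 0.18), and Omd was lowest of the detected genes at 2.36 ± 0.05 CPM per kb (SD, n = 3 each). In heterozygous ovaries Bgn (163 ± 18.9) and Dcn (103 ± 6.48) remained first, Ogn (77.1 ± 14.8) stood above Lum (31.8 ± 2.22), and Omd at 15.3 ± 2.76 CPM per kb was close to Prelp (18.1 ± 3.12) and above Aspn (9.3 ± 2.99) and Fmod (2.92 ± 0.63). With the length of all merged exons instead, wild-type Dcn and Bgn came to 57.3 and 82.6 CPM per kb, so their distance from Lum and Ogn depends on the gene model. In heterozygous ovaries Ogn would then rank first, since Bgn and Dcn came to 64.6 and 30.9 CPM per kb.

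As shares of the summed CPM per kb of the family, Omd made up 0.435% ± 0.02 in wild-type and 3.62% ± 0.34 in heterozygous ovaries (SD, n = 3 each). Ogn made up 10.2% ± 2.9 and 18.3% ± 1.78, Dcn 34.8% ± 7.01 and 24.6% ± 2.08, and Lum 11.1% ± 0.26 and 7.61% ± 0.69. Bgn made up 38.3% ± 2.68 and 38.8% ± 2.41, a difference smaller than the spread between libraries. The sum itself was 544 ± 28.9 CPM per kb in wild-type and 420 ± 44 in heterozygous ovaries (log2 difference -0.38, exact two-sided permutation p = 0.1). The share of Bgn was thus similar while its mean level was lower, at 163 against 208 CPM per kb. With the length of all merged exons, Bgn made up 28.9% ± 0.22 and 25.9% ± 1.99, Dcn 20.2% ± 5.14 and 12.5% ± 1.2, Lum 21.1% ± 0.86 and 12.8% ± 1.46, Ogn 19.3% ± 4.26 and 30.7% ± 2.35, and Omd 0.829% ± 0.03 and 6.09% ± 0.45. The share of Omd was thus higher in heterozygous ovaries by either length, whereas its size, and whether Bgn kept its share, depended on the length. These shares are a description and were not tested.

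**Figure D3:**
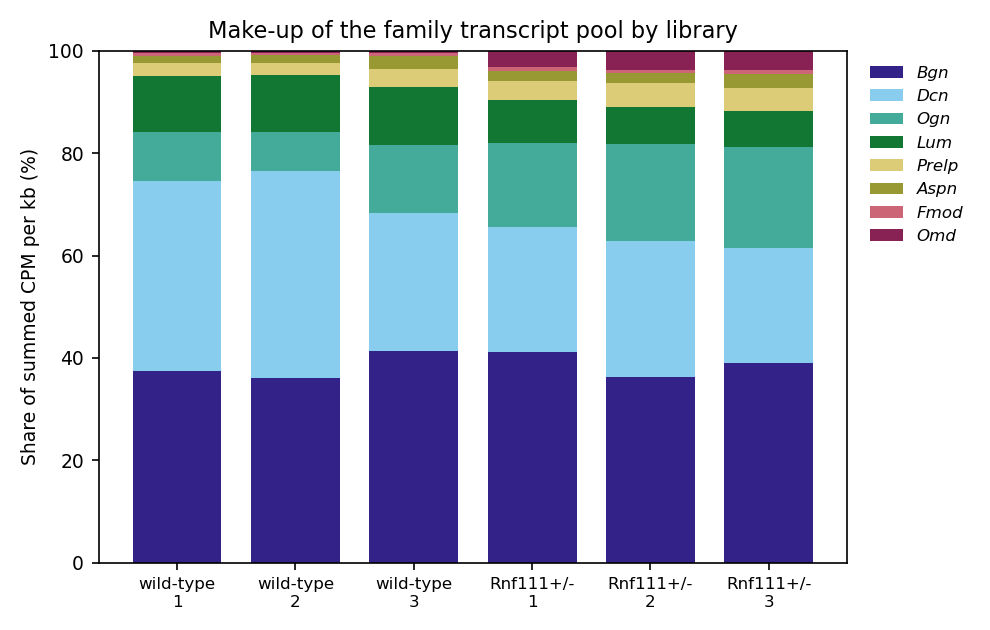
Share of each gene in the summed CPM per kb of the 8 detected genes (vertical axis, percent), 1 bar per library. Bgn takes 36.2 to 41.3% in every library, the Omd segment at the top grows from at most 0.45% to at least 3.23%, and the Dcn segment is largest in wild-type replicates 1 and 2.

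Most of the family lies in 3 groups of neighbouring genes. Ecm2, Aspn, Omd and Ogn follow each other, with all of Omd and Ogn lying inside the span of Cenpp, a centromere protein gene on the opposite strand. Dcn, Lum, Kera and Epyc form the second group, and Optc, Prelp and Fmod the third; Bgn lies alone. In the first group Omd rose while the genes on either side did not pass: Ecm2, a family gene outside the 10, was at 0.12 ± 0.10 (adjusted p = 0.509), Aspn at -0.04 and Ogn at 0.48. In the second group the 2 detected genes fell and the other 2 were at 0 counts. Omd and Ogn share no exon bases with Cenpp in the annotation of build GRCm38, and Aspn shares 7. Cenpp was at 8.09, 5.21 and 4.67 CPM in wild-type and at 8.17, 8.28 and 8.1 CPM in heterozygous ovaries (log2 0.45 ± 0.22, adjusted p = 0.246). An antisense transcript, Gm15851, covers 350 exon bases of Prelp and has no row of its own among the counts, and Prelp counts may hold reads of both, because the strand setting of the counting is unknown here.

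**Figure D4:**
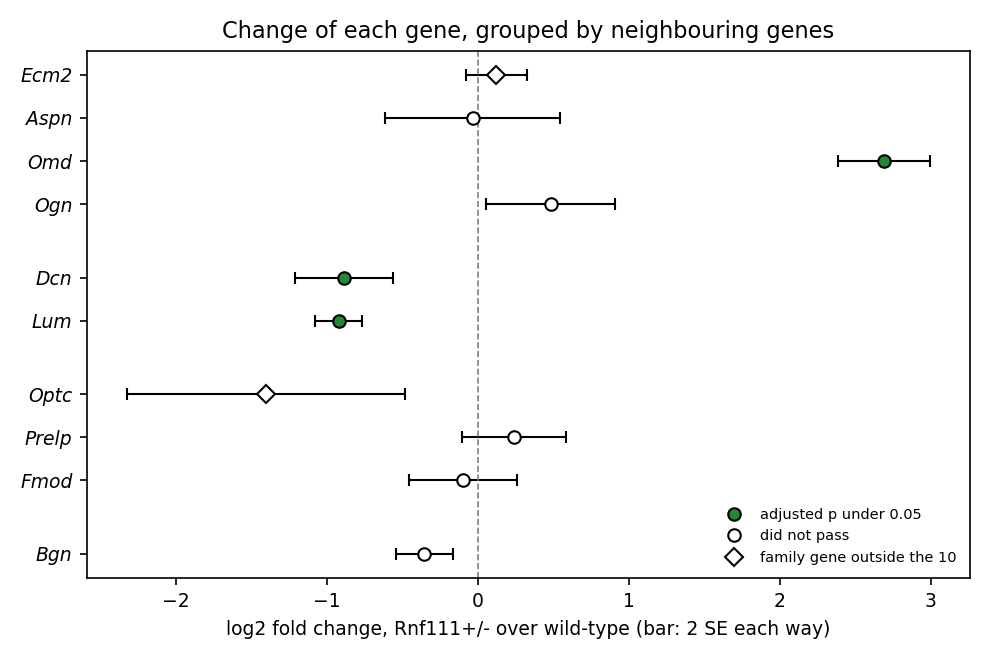
log2 fold change of each gene, Rnf111+/- over wild type (horizontal axis), with bars of 2 SE each way, in blocks of neighbouring genes in genome order. Circles are the family genes followed here, diamonds are Ecm2 and Optc, and filled symbols passed at an adjusted p under 0.05. Omd at 2.69 stands among neighbours between -0.04 and 0.48.

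The promoters of Omd and of its family neighbours Ogn and Aspn are shown because these adjoining genes differed in their change. Each runs from 250 bases before to 50 bases after the annotated start (RefSeq, build GRCm38.p6), 5′ to 3′. Capitals mark matches to a TATA box (TATAAA) or a RUNX motif (TGTGGT), on either strand.
Omd, chr13:49582212-49582511, plus strand: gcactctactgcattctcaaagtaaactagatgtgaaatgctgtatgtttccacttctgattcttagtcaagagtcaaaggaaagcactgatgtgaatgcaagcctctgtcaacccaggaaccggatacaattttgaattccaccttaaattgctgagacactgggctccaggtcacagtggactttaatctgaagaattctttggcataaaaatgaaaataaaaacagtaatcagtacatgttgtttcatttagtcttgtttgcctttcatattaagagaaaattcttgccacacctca
Ogn, chr13:49607765-49608064, plus strand: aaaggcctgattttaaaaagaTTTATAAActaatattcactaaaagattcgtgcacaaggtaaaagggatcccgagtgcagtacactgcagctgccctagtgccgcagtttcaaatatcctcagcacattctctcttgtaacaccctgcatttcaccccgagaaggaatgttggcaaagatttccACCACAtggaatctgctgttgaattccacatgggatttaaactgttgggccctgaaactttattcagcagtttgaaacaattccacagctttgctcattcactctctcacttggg
Aspn, chr13:49544193-49544492, plus strand: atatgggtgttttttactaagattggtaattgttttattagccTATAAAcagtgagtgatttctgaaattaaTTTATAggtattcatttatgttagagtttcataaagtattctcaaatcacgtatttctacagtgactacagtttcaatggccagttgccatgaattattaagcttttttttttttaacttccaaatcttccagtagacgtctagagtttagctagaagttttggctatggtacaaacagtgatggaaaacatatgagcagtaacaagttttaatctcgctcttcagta
The Omd window held none of the 6 motifs searched on both strands: the SMAD half-site CAGAC, the SMAD palindrome GTCTAGAC, the BMP-type GC-box GGCGCC, the AP-1 motif TGANTCA, the RUNX motif and the TATA box. The Ogn window held 2 overlapping TATAAA matches, at positions -229 and -227 from the start, and a RUNX match at -65. The Aspn window held 2 TATAAA matches, at -207 and -178. Promoters were at hand for 8 of the 10 genes, in 9 windows, and not for Dcn and Lum. CAGAC occurred in 2 of the 9 (Fmod and Prelp), against 49.6% of the 32851 promoters in the table. TATAAA occurred in 2 of the 9 (13.6% of all promoters), TGTGGT in 2 (Ogn and 1 of the windows of Epyc, 16.8%), and GTCTAGAC, GGCGCC and TGANTCA in 0, against 0.213%, 11.9% and 7.81% of all promoters. These are matches of letters in short windows and show neither binding nor its absence.

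The genes that build, process and bind these proteoglycans were described from lists. Over all 16841 genes tested, 9.64% passed. The share was 19% for chondroitin and dermatan sulfate synthesis, 14.3% for keratan sulfate, 40% for processing and 50% for collagens. It was 20% for proteases. At 10.5% for receptors and ligands and 10% for other proteoglycans it was near that of all genes. Of the other 8 genes of the family, all were tested and 0 passed, with a median log2 fold change of -0.64. The best expressed of them were Ecm2, given above, and Tsku, which encodes the secreted signalling modulator tsukushi, at 16.9 ± 1.34 against 12.5 ± 2 CPM (SD, n = 3 each; log2 -0.44 ± 0.15, adjusted p = 0.102). At an unadjusted p under 0.05 the list held 4 genes by edgeR, and DESeq2 called 3 falls and limma-voom 0. Over all 16841 genes tested, 4290 were at an unadjusted p under 0.05 by edgeR. The falls called over all genes numbered 1443 by DESeq2 and 901 by limma-voom. Optc and Podn, chosen after their values were seen, were at -1.40 ± 0.46 and -1.36 ± 0.39 and each passed in at least 1 alternative.

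Sulfated chains are built on these core proteins in the Golgi. Of the genes of the linker and of chondroitin and dermatan sulfate synthesis, 2 rose and 2 fell among 21 tested (median log2 -0.003). Chst3, a chondroitin 6-O-sulfotransferase, rose by 0.81 ± 0.19 (SE, adjusted p = 0.0314) and Chsy1, which lengthens the chain, rose by 0.61 ± 0.11 (adjusted p = 0.0129). Xylt1, which starts the chain on the core protein, fell by 0.78 ± 0.18 (adjusted p = 0.032) and the 4-O-sulfotransferase gene Chst11 fell by 0.32 ± 0.07 (adjusted p = 0.0264). The calls of Xylt1, Chst3 and Chst11 each held in 1 of the 6 fits that left out a library, and that of Chsy1 in 4. Of 7 keratan sulfate genes tested, 1 fell (Chst2, a sulfotransferase, by 0.55 ± 0.10, adjusted p = 0.0115) and 0 rose, with a median of -0.04.

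Among the 5 genes tested for processing of procollagen and of the propeptides of biglycan and its relatives, 2 fell (median log2 -0.07). Pcolce, which encodes the enhancer of procollagen C-proteinase, was at 438, 439 and 420 CPM in wild-type and at 207, 180 and 239 CPM in heterozygous ovaries. It fell by 1.05 ± 0.10 (SE, adjusted p = 0.000918), and the call held with each library left out. The protease gene Bmp1 was at 149 ± 3.24 against 142 ± 2.85 CPM and did not pass (log2 -0.07 ± 0.06, adjusted p = 0.55). Tll2, a relative of Bmp1 at low level, fell from 1.71 ± 1.14 to 0.187 ± 0.04 CPM (adjusted p = 0.0243), with a call that held in 1 of the 6 fits with a library left out.

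Of 12 collagen genes whose products carry these proteoglycans on their fibrils, 5 fell and 1 rose, with a median of -0.42. Col3a1 was at 1241, 1192 and 1612 CPM in wild-type and at 619, 620 and 751 CPM in heterozygous ovaries, and fell by 1.02 ± 0.13 (SE, adjusted p = 0.00395). Col5a3, Col5a2 and Col1a1 fell by 1.52, 0.88 and 0.68, and Col1a2, the remaining fall and outside the rule for named genes, by 0.34. Col11a1 rose from 43.8 ± 8.75 to 80 ± 1.16 CPM (log2 0.87 ± 0.13, adjusted p = 0.00733). The falls in this list numbered 8 without wild-type replicate 3 and 3 without heterozygous replicate 1 or 2, while falls over all genes went from 966 to 1522, 475 and 297 in the same fits. Those of Col3a1, Col5a2 and Col5a3 held in all 6 such fits. The remaining 6 genes did not pass, among them Col6a3, which was higher in heterozygous ovaries at 0.53 ± 0.17, and Col5a1, which was lower at -0.49 ± 0.13 (adjusted p = 0.0928 and 0.0569, both named after their values were seen).

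Of 19 genes for receptors and ligands that bind the proteoglycans, 1 rose and 1 fell (median -0.007). Ccn2, a matrix protein and TGF-beta target, was at 56 ± 17.9 CPM in wild-type and rose to 182 ± 52.9 CPM (log2 1.70 ± 0.31, adjusted p = 0.027); its call held in 2 of the 6 fits with a library left out. Egfr, a receptor that decorin binds, fell by 0.32 ± 0.08 (adjusted p = 0.0349), a call that held in 1 of them. Tgfb1 and Tgfb2 were higher in heterozygous ovaries (log2 0.62 ± 0.21 and 0.39 ± 0.14) and Tgfb3 was lower (-0.33 ± 0.10). None of them passed (adjusted p = 0.119, 0.123 and 0.0769). Of 10 protease genes tested, 1 rose and 1 fell, with a median of -0.40. The aggrecanase gene Adamts5 was at 16.9 ± 2.82 CPM in wild-type and rose to 56.3 ± 17.3 CPM in heterozygous ovaries (log2 1.74 ± 0.24, adjusted p = 0.00853). Adamts1, which is induced at ovulation, was at 248, 122 and 548 CPM in wild-type and at 36, 32.8 and 39.5 CPM in heterozygous ovaries (log2 -3.08 ± 0.60, adjusted p = 0.0396). The call of Adamts5 held with each library left out, and that of Adamts1 in 2 of the 6 fits. Of 20 other proteoglycan genes tested, 1 fell and 1 rose (median 0.03). Hspg2, the basement membrane proteoglycan perlecan, was at 682 ± 29.3 CPM in wild-type and fell to 388 ± 24.2 CPM (log2 -0.81 ± 0.07, adjusted p = 0.000675). Sdc4, a cell surface proteoglycan, rose by 0.47 ± 0.12 (adjusted p = 0.0421), a call that held in 1 of the 6 fits.

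**Figure D5:**
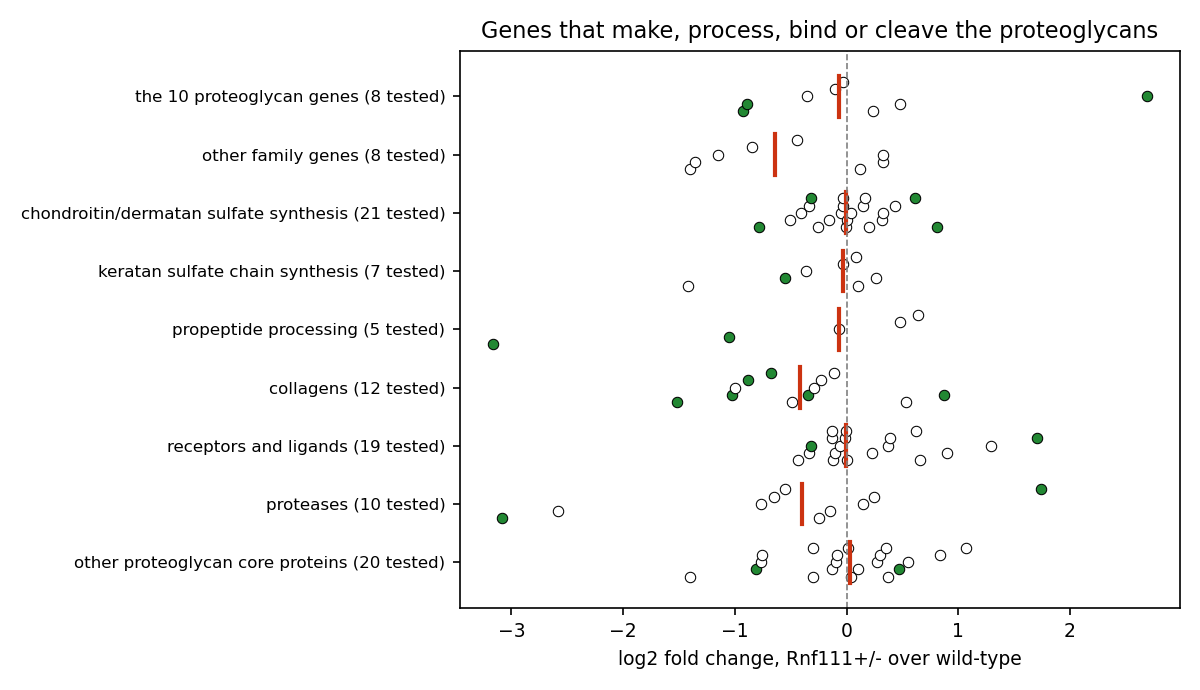
log2 fold change, Rnf111+/- over wild type (horizontal axis), of each tested gene in the lists of genes that make, process, bind or cleave the proteoglycans; points are genes, offset vertically for legibility, filled where the adjusted p was under 0.05, and red bars are list medians. Omd at 2.69 lies to the right of all genes shown, and the collagen list has its median at -0.42.

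Markers of the cell types that can make these proteins were set beside these values. Over all genes tested, 3.9% passed upwards and 5.74% downwards. Of 12 fibroblast and stroma markers 3 fell (among them Cd34 and Dpt) and 0 rose, with sums of 936 to 1072 CPM in wild-type and 808 to 884 CPM in heterozygous libraries. Of 10 smooth muscle and pericyte markers 4 fell (among them Mcam and Tagln) and 0 rose, with sums of 1286 to 1619 CPM against 812 to 1070 CPM. Of 8 endothelial markers 5 fell (among them Cdh5 and Kdr) and 0 rose, with sums of 400 to 467 CPM against 294 to 341 CPM. The sums of all 3 lists were lower in the libraries with low Dcn and Lum and high Omd, and the part of cell composition in these results was not tested. With single libraries left out the falls ranged from 0 to 4 for stroma, from 2 to 4 for smooth muscle and from 0 to 4 for endothelium. Stroma had 0 falls whichever heterozygous replicate was left out, and endothelium had 0 without heterozygous replicate 2. Falls over all genes also dropped in these fits, from 966 to 475, 297 and 333 without heterozygous replicates 1, 2 and 3.

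Markers that define the ovary were present in every library. Their counts stand beside the same shares of all tested genes, 3.9% upwards and 5.74% downwards. Of 8 oocyte markers 5 rose (among them Gdf9 and Zp1) and 0 fell, with sums of 175 to 191 CPM in wild-type and 237 to 327 CPM in heterozygous libraries, and of 8 granulosa markers 1 rose (Cyp19a1) and 0 fell. Of 8 theca markers 1 rose (Cyp17a1) and 2 fell (among them Star), and of 8 corpus luteum markers 1 fell (Parm1) and 0 rose. Sums of the luteal markers were 2101 to 3436 CPM in wild-type and 5884 to 8763 CPM in heterozygous libraries, without overlap. These sums were carried by 3 genes that did not pass by edgeR with all libraries, Akr1c18 (276 against 2420 CPM), Sfrp4 (445 against 2616 CPM) and Ptgfr (202 against 699 CPM). Wild-type replicate 3 was the highest wild-type library for each. Akr1c18 was at 86.1, 66.7 and 676 CPM there, Sfrp4 at 178, 268 and 890 and Ptgfr at 71.4, 81.9 and 454. Without that library, 3 of the 8 luteal markers rose and 1 fell, while 1273 of all genes rose and 1522 fell. With DESeq2, 2 rose and 1 fell, against 1172 and 1443 of all genes. In the main fit 4 of the 8 markers were lower and the median log2 fold change was 0.09. The part of luteal tissue in the rise of Omd was not tested. Of 8 markers of ovarian surface epithelium 3 fell (among them Krt19 and Msln), of 7 tested markers of oviduct epithelium 1 fell (Epcam), of 7 tested adipocyte markers 1 rose (Pparg), and of 8 macrophage and 5 erythrocyte markers 0 passed by edgeR (1 and 0 at an unadjusted p under 0.05, 1 and 0 by DESeq2, 0 and 0 by limma-voom). Over all 16841 genes tested, 4290 were at an unadjusted p under 0.05. Without wild-type replicate 3, 3 macrophage markers rose and 0 fell. In wild-type and heterozygous libraries, sums ran from 14063 to 14948 and from 10173 to 13207 CPM for theca. Most of the theca sums came from Cyp11a1 (5570 against 4415 CPM) and Hsd3b1 (5352 against 3695 CPM). Cyp17a1 went the other way, from 2.81 to 197 CPM, and 4 of the 8 theca markers were lower in heterozygous ovaries. Sums ran from 2503 to 5793 and from 4479 to 6761 CPM for granulosa, and from 577 to 644 and from 473 to 527 CPM for surface epithelium. Oviduct sums ran from 66.7 to 233 and from 48 to 53.6 CPM. Outside wild-type replicate 3 most of them came from Epcam, at 59.7 and 56.6 CPM in wild-type and 38.5, 37.7 and 41.8 CPM in heterozygous libraries. Ovgp1 was at 1.85, 6.27 and 146 CPM in wild-type and at 2.59, 8.05 and 4.88 CPM in heterozygous libraries (adjusted p = 0.325). Sums ran from 42 to 95.9 and from 67.5 to 93.9 CPM for adipocytes, and from 312 to 507 and from 338 to 437 CPM for macrophages. For erythrocytes they ran from 37.5 to 75.7 and from 46.9 to 172 CPM.

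By the rule for likeness, the genes of at least 10 CPM whose log2 CPM over the 6 libraries correlated most with that of Omd were Pik3cd, Coch, Enah, Fzd8 and Smoc2, with Pearson's r from 0.995 to 0.997. They rose by 0.55 (Fzd8) to 1.72 (Smoc2) on the log2 scale, each by less than Omd. Smoc2, which encodes a secreted matricellular protein, was at 114 ± 10.9 against 376 ± 42.4 CPM. Those most like Dcn were Ctnnb1, Igfbp6, Rabggtb, Ist1 and C1s1, with r from 0.996 to 0.998, of which Ctnnb1, Igfbp6 and C1s1 fell (adjusted p = 0.0201, 0.0115 and 0.0178). The points of these correlations are 6 libraries in 2 genotypes, so r describes the difference between genotypes and the shared spread of libraries together.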

How the data were processed

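Ovary libraries of 3 wild-type and 3 Rnf111+/- mice were analysed from whole-number read counts per gene as deposited by the authors. Per the submitters' processing notes, fastp (0.20.1), HISAT2 (2.1.0), HTSeq (0.11.2), DESeq2 (1.38.3) and build GRCm39 were used; roles, annotation and strand setting: not given in the sources used here. Groups came from the labels' genotypes, and 0 columns lacked a sample.

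Counts were filtered (filterByExpr, minimum count 10, minimum total 15), scaled by TMM and fitted with edgeR (4.0.16, R 4.3.3), genotype as the only term, by a robust quasi-likelihood test. An SE was taken as the size of the log2 fold change over the root of F. Ratios to Omd and Lum used limma (3.58.1) on log2 CPM (prior count 2). Replicate pairs differed by a chi-square of at least 11.8 per degree of freedom, so no library was taken for a copy of another. Pairs with wild-type replicate 3 were at 59 and 61.6, and heterozygous pairs at 19.1 to 21.3. All 6 libraries were kept, wild-type replicate 3 among them. Floors cover counting error only, and p-values measure the spread between mice. Lengths and gene neighbours came from an annotation of build GRCm38, where all 10 genes were matched by symbol. Both fits were run on simulated data in which Omd was left unchanged. The ratio fit was thus not tried there with a reference gene that rose, as Omd did here. The 10 genes, the lists and the rules were chosen with earlier results of these data known. Named were the 10 genes, Rnf111, up to 4 called genes of smallest p per list and direction, and the 2 highest of a list without a call; of each marker list the 2 called genes of smallest p are named, beside counts and sums; likeness took the 5 genes of highest r among those of at least 10 CPM. Some genes are named outside these rules, among them Bmp1, Tgfb1, Tgfb2, Tgfb3, Cenpp and uncalled genes of the bone and cartilage, luteal, theca and oviduct lists. Alternatives were 2 other scalings, 2 other filters, DESeq2 (1.42.0), limma-voom, a replicate block and leaving out each library.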

Additional observations from a re-analysis of the deposited data

How the results depend on the processing

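The rise of Omd and the fall of Lum kept their calls in all 13 alternative fits, with log2 fold changes from 2.56 to 2.82 and from -0.96 to -0.86. All 7 ratios to Omd passed in each of the 10 fits tried. With all libraries, 98.3% of all other genes also fell relative to Omd, so these passes speak of Omd's own rise and not of the 7 genes. Of the 10 genes, 1 to 2 rose and 1 to 3 fell when libraries were left out, against 1 and 2 with all of them; Dcn ranged from -1.04 to -0.71, Ogn from 0.33 to 0.72, Bgn from -0.44 to -0.27, Aspn from -0.33 to 0.26 and Fmod from -0.29 to 0.0083 in these fits. The sign of Fmod turned without heterozygous replicate 2 (0.0083), and that of Aspn without wild-type replicate 3 (0.26) and heterozygous replicates 1 (0.08) and 2 (0.11). Bgn passed with no filter (-0.35), DESeq2 (-0.35) and limma-voom (-0.36). The log2 change of Dcn relative to Lum ranged from -0.13 to 0.19 with libraries left out, and turned sign without wild-type replicate 3 (-0.13) and heterozygous replicate 2 (-0.03). The genes of the pathway lists that rose numbered 6 with all libraries and 13 with DESeq2, and those that fell 13 and 23; with libraries left out they ranged from 2 to 15 and from 5 to 23, both highest without wild-type replicate 3. Calls over all genes moved likewise in those fits, to 1273 up and 1522 down without wild-type replicate 3 and to 224 to 384 up and 297 to 525 down in the other 5. Without wild-type replicate 3, 4 other proteoglycan genes rose and 4 fell, against 1 and 1 with all libraries. Of protease genes 2 rose and 3 fell, against 1 and 1. Of chondroitin and dermatan sulfate genes 4 rose and 2 fell, against 2 and 2. Keratan sulfate genes, stroma markers and surface epithelium markers each had 1 rise there, against 0. Over all genes, calls with DESeq2 numbered 1172 up and 1443 down, against 657 and 966, and upper-quartile scaling gave 792 and 836. With merged-exon lengths, the share of Omd in the family was 0.829% and 6.09%, against 0.435% and 3.62%. The causes of these shifts were not tested.

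The replicate number does not pair the mice by the labels. Deviations from the group means correlated at 0.012, 0.0057 and 0.1 between same-numbered libraries, and not every library correlated best with its own number. With the replicate number as a block, 2 of the 10 genes rose, Ogn being added (0.49, adjusted p = 0.0308 by edgeR), and Bgn passed as a fall (-0.36, adjusted p = 0.0316); the count of calls over all genes was 678 up and 948 down. Groups of 3 limit what can be detected among genes whose libraries spread widely, such as Aspn and Ogn.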
